A study of Capra hircus with 10 samples.

Results

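ATP-binding cassette (ABC) proteins bind and hydrolyse ATP, and most of them use it to move substrates across membranes. The members analysed here were the protein-coding genes of the goat transcript table whose official symbol starts with ABC, then a subfamily letter from A to G, then a digit. This rule gave 42 genes with 109 transcripts, out of 20587 protein-coding gene symbols with 43766 protein-coding transcripts. All 42 gene identifiers carried the same symbol in the goat RefSeq annotation. RNA from whole ovaries of Anhui white goats was sequenced, with 5 ovaries in the luteal phase of the estrous cycle and 5 in the follicular phase, 1 library per ovary. The ovaries came from a slaughterhouse, and the sources used here name no treatment or genetic change and give no age. Nothing states that the 10 ovaries came from 10 goats, so the p-values measure the spread between these ovaries only.

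Cholesterol is the starting material of progesterone, which the corpus luteum makes in the luteal phase. Cells take it up from lipoproteins or synthesise it, and several ABC proteins move it, or other sterols and phospholipids, back out of the cell. The family also holds drug and conjugate exporters, mitochondrial and peroxisomal transporters, receptors of sulfonylurea drugs and a few soluble proteins that act on ribosomes.

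Levels are FPKM, fragment counts scaled to transcript length and to the mapped fragments of the library, summed here over the transcripts of a gene. Log2 fold changes are luteal minus follicular on the log2(FPKM + 0.1) scale, which understates the change of low genes. A gene was tested when its FPKM was at least 0.1 in at least 5 ovaries, and it was called when its limma p was under 0.05 after Benjamini-Hochberg adjustment across the 15359 genes tested. In bulk tissue, fewer cells of a type and less RNA per cell cannot be told apart. FPKM over all transcripts summed to 452508 to 503276 per luteal and 492324 to 540124 per follicular phase ovary. Transcripts above 0 FPKM numbered 36980 to 37707 and 38433 to 40259 in the same order, without overlap. The Pearson correlation between ovaries over log10(FPKM + 1) lay between 0.928 and 0.967. Depth per ovary is unknown, because no read counts were used here.

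The summed level of the ABC genes overlapped between the phases. It was 234 to 259 FPKM in the luteal phase ovaries (249 ± 9.48, SD, n = 5) and 237 to 266 FPKM in the follicular phase ovaries (249 ± 12.5, SD, n = 5). That was 0.05 to 0.0585% of the protein-coding FPKM of a luteal phase ovary and 0.0481 to 0.0580% of that of a follicular phase ovary. The 5 highest genes, ABCE1, ABCB1, ABCA1, ABCF3 and ABCD3, made up 46.0% of the summed level (42.7 to 48.6% over the 10 ovaries). Between 30 and 33 of the 42 genes reached 0.1 FPKM in a luteal phase ovary and between 31 and 33 in a follicular phase ovary. The plot of levels shows the spread from ABCE1, at 25.7 FPKM or more in every follicular phase ovary, down to ABCB5, listed at 0 in 8 of the 10 ovaries.

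**Figure D1:**
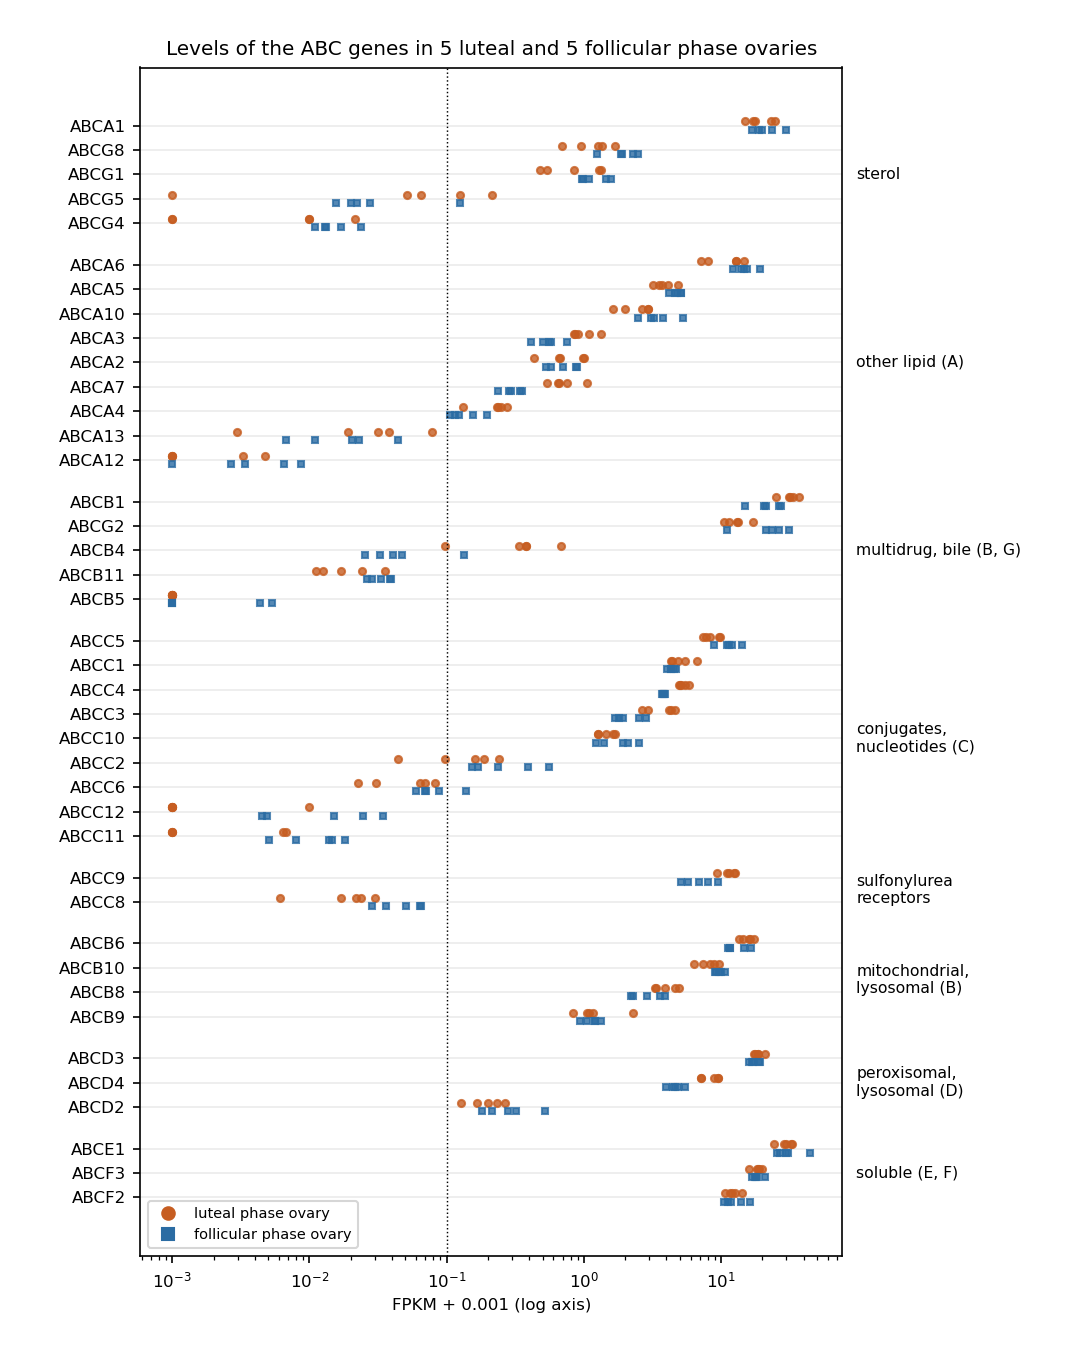
Level of 40 ABC genes in each ovary, as FPKM + 0.001 on a log axis, grouped by role. Circles are the 5 luteal phase ovaries, squares the 5 follicular phase ovaries, and the dotted line marks 0.1 FPKM. Most genes keep a narrow band over the 10 ovaries, and ABCB4 is the gene whose luteal circles lie farthest to the right of its follicular squares.

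Of the 42 genes, 32 were tested. The other 10 were below the filter, namely ABCA12, ABCA13, ABCB5, ABCB11, ABCC6, ABCC8, ABCC11, ABCC12, ABCG4 and ABCG5. In all, 11 of the 32 tested genes were called (34.4%), against 43.7% of all genes tested. Of these, 8 were higher in the luteal phase (25%, against 15.9% of all genes) and 3 were higher in the follicular phase (9.38%, against 27.8% of all genes). When 1 ovary was left out, calls toward luteal numbered 7 to 10 and calls toward follicular 0 to 5, with 0 of the latter without follicular replicate 1 or 3, 1 without luteal replicate 2, 4 or 5 and 5 without luteal replicate 3. The median log2 fold change was 0.01 over the tested ABC genes and -0.14 over all genes. For 4 genes, ABCA3, ABCA7, ABCC4 and ABCD4, the FPKM ranges of the 2 phases were apart (12.5%, against 28.4% of all genes). The luteal phase was above in all 4 (11.2% of all genes) and the follicular phase in 0 (17.2% of all genes). The split depended on the scaling. After FPKM were rescaled to TPM, 10 ABC genes were called, all of them higher in the luteal phase. The luteal share of the calls thus went from 72.7% to 100%, while over all genes it went from 36.3% to 52.1%. The median log2 fold change over all genes went from -0.14 to -0.05, so the all-gene shares by direction also depended on the scaling. Under TPM, 2 ABC genes were higher in the follicular phase at an unadjusted limma p under 0.05. With only the highest transcript of each gene, 4 ABC genes were called by limma, all higher in the luteal phase, and with an exact permutation test per gene 7 were called, again all higher in the luteal phase. At an unadjusted p under 0.05, 2 and 5 ABC genes were higher in the follicular phase under these alternatives. Over all genes, 32.3% were called with the highest transcript only and 36.1% with the exact permutation test, of which 40.1% and 37.6% were higher in the luteal phase.

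**Figure D2:**
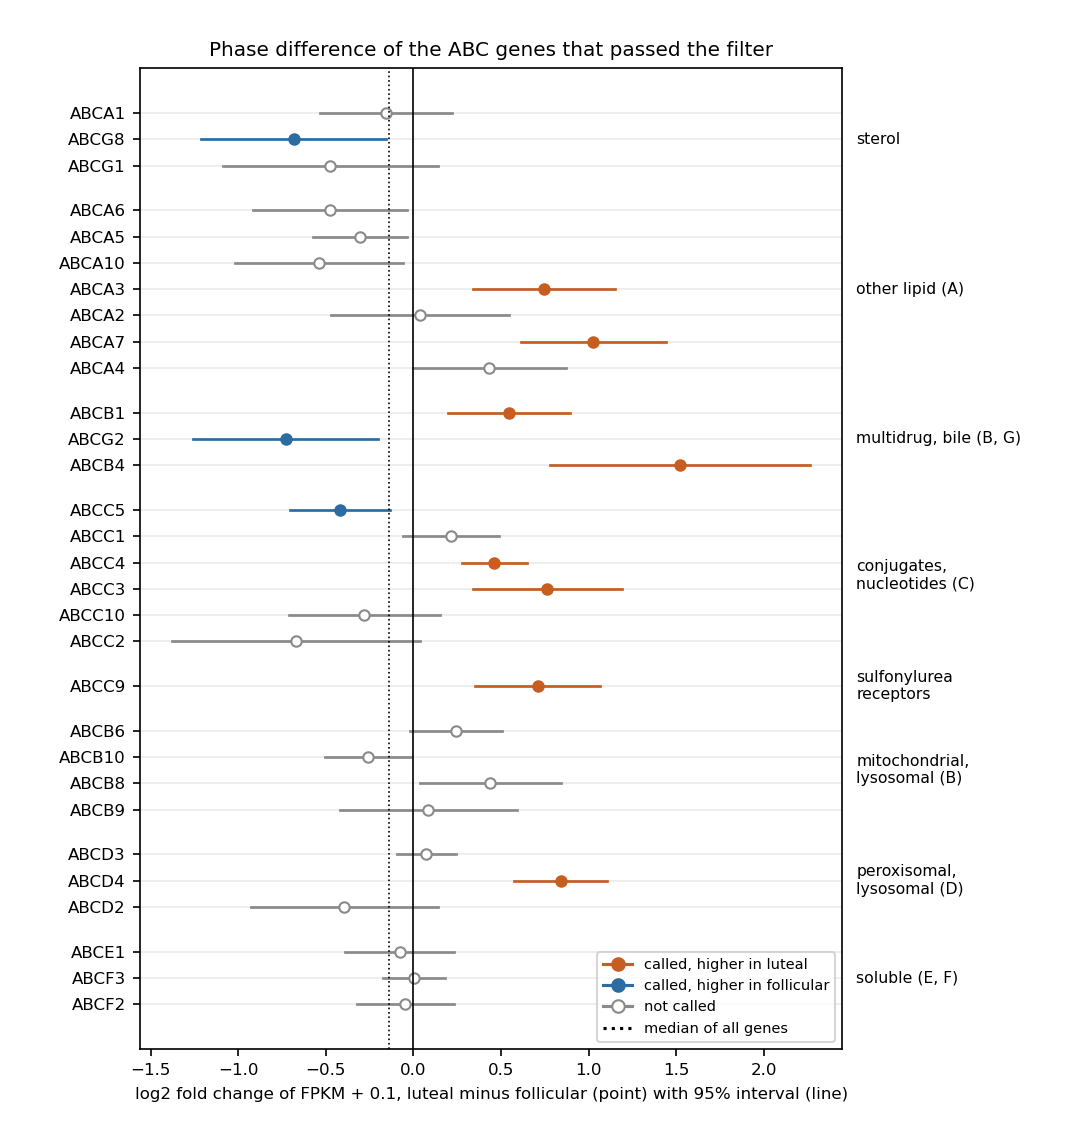
Log2 fold change of FPKM + 0.1, luteal minus follicular (point), with its 95% interval (line) for 30 ABC genes that passed the filter, grouped by role. Filled points are the 11 called genes, 8 to the right of 0 and 3 to the left, and the dotted line is the median of all genes at -0.14.

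Of the 5 sterol transporters, 3 were tested and 1 was called, higher in the follicular phase, beside 43.7% of all genes called and 27.8% called in that direction. ABCG8 was 1.63 times as high in the follicular phase as in the luteal phase by mean FPKM, ABCA1 and ABCG1 were not called, and ABCG5 and ABCG4 stayed below the filter. ABCA1 (gene 102179197) moves cholesterol and phospholipid out of the cell onto apolipoprotein A-I. In luteal phase ovaries 1 to 5 it was at 17.7, 24.8, 23.1, 14.8 and 17.1 FPKM, and in follicular phase ovaries 1 to 5 at 19.8, 16.9, 23.6, 19.0 and 29.6 FPKM. The phases overlapped, with the highest value in follicular replicate 5 and the lowest in luteal replicate 4. The means were 19.5 ± 4.22 and 21.8 ± 5.02 FPKM (SD, n = 5 each), and the log2 fold change of -0.16 (95% interval -0.53 to 0.22) had an adjusted p of 0.486. ABCA1 was the third highest gene of the family.

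ABCG1 (gene 102181242) passes cellular cholesterol to high-density lipoprotein particles. Its luteal phase ovaries 1 to 5 were at 1.28, 1.34, 0.842, 0.480 and 0.538 FPKM and its follicular phase ovaries at 0.977, 0.971, 1.46, 1.09 and 1.58 FPKM. Of the luteal phase ovaries, 3 were below every follicular one and the other 2 were inside the follicular range. The log2 fold change was -0.47 (95% interval -1.09 to 0.14, adjusted p = 0.187), so the interval covered both 0 and a level lower by 1.09 on the log2 scale in the luteal phase. ABCA1 was 13.9 to 31.8 times as high as ABCG1 in the luteal phase ovaries (median 27.4) and 16.2 to 20.2 times in the follicular phase ovaries (median 17.5).

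ABCG8 (gene 102189408) and ABCG5 (gene 102189134) are 2 neighbouring genes whose proteins act as a pair that exports cholesterol and plant sterols in liver and intestine. ABCG8 was at 1.36, 1.26, 1.70, 0.697 and 0.955 FPKM in luteal phase ovaries 1 to 5 and at 2.27, 1.90, 1.86, 1.25 and 2.47 FPKM in follicular phase ovaries 1 to 5. Of the follicular phase ovaries, 4 were above every luteal one, and follicular replicate 4 lay within the luteal range. The log2 fold change was -0.68 (95% interval -1.21 to -0.16, adjusted p = 0.0382). The call was lost when luteal replicate 2, 4 or 5 or follicular replicate 1, 2, 3 or 5 was left out, with adjusted p between 0.0536 and 0.0882. ABCG8 was also the gene whose call rested on a transcript with a non-coding accession, XR_001296257.2, which held on average 54.3% of its FPKM in luteal phase ovaries and 64.8% in follicular ones. With messenger RNA accessions alone, an alternative chosen after seeing the data, the log2 fold change was -0.41 (adjusted p = 0.344).

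ABCG5 was low throughout. It was at 0.05, 0.0639, 0.213, 0 and 0.125 FPKM in luteal phase ovaries 1 to 5 and at 0.124, 0.0192, 0.0268, 0.0212 and 0.0146 FPKM in follicular phase ovaries 1 to 5. Only 2 luteal phase ovaries and 1 follicular phase ovary reached 0.1 FPKM. ABCG4 (gene 102175224), a relative of ABCG1 best known from the brain, was at 0.00888, 0.00884, 0, 0 and 0.0204 FPKM in luteal phase ovaries 1 to 5 and at 0.0159, 0.0120, 0.0122, 0.0228 and 0.01 FPKM in follicular phase ovaries 1 to 5. All of these values were under the filter, and the phases overlapped.

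**Figure D3:**
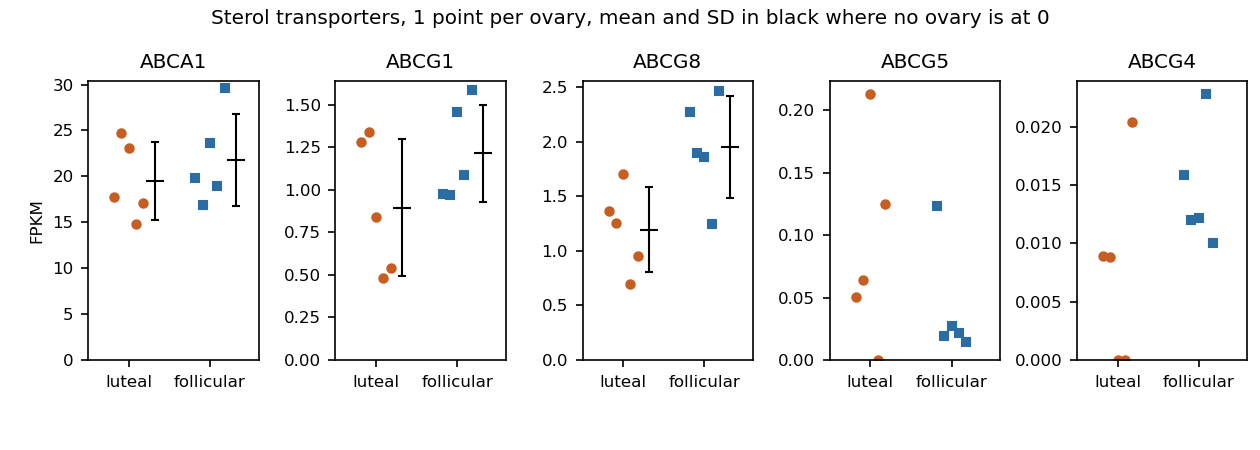
FPKM of the 5 sterol transporters, each panel on its own linear axis from 0, with 1 point per ovary. Black bars are mean and SD (n = 5) and are left out for ABCG5 and ABCG4, where ovaries are listed at 0. ABCA1 and ABCG1 overlap between the phases, and 4 of 5 follicular phase ovaries lie above all luteal ones for ABCG8.

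Most listed genes that bring cholesterol into the cell or to the mitochondrion rose in the luteal phase. Of the 32 listed genes of uptake, lysosomal release, mitochondrial movement, ester storage, efflux and sterol sensing, 31 were tested and 21 were called (background 43.7% of all genes), with a median log2 fold change of 0.33. Of the 21, 16 were higher in luteal phase ovaries (15.9% of all genes) and 5 in follicular ones (27.8% of all genes). STAR, which moves cholesterol into the mitochondrion, had a log2 fold change of 7.35 (SE 0.20). SCARB1, the receptor for high-density lipoprotein, had one of 4.01 (SE 0.12). STAR and SCARB1 also belong to the list of luteal cell markers. In the uptake group 3 of 4 genes rose, as did 3 of 5 genes of movement to the mitochondrion, beside the same 15.9% of all genes. The ratio of SCARB1 to ABCA1 was 5.64 to 11.9 in the luteal phase ovaries (median 8.22) and 0.324 to 0.597 in the follicular phase ovaries (median 0.486). The ranges of that ratio did not overlap, while those of ABCA1 did. SCARB1 itself was at 136 to 204 FPKM in luteal and 8.34 to 11.8 FPKM in follicular phase ovaries, so the ratio restates the difference of SCARB1.

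The efflux partners split. APOA1, the apolipoprotein that accepts cholesterol from ABCA1, averaged 4437 ± 828 FPKM over the luteal and 465 ± 109 FPKM over the follicular phase ovaries (SD, n = 5 each). Its log2 fold change was 3.26 (SE 0.17, adjusted p = 2.15e-07). APOE, another lipoprotein component that accepts cellular cholesterol, went the other way, at 291 ± 24.0 and 419 ± 48.1 FPKM, with a log2 fold change of -0.52 (SE 0.10, adjusted p = 0.00145). PLTP, which moves phospholipid between lipoproteins, was also lower in the luteal phase (log2 fold change -0.77, SE 0.22, adjusted p = 0.0160). CYP27A1 was not analysed here. NPC2, which binds cholesterol inside lysosomes, had a log2 fold change of 0.43 (SE 0.15, adjusted p = 0.0396), a call lost in 8 of 10 fits without 1 ovary (adjusted p 0.0510 to 0.0908) and in 5 of 12 other alternatives (0.0530 to 0.138).

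The sterol-sensing liver X receptors, known to switch on ABCA1 and ABCG1 in many cells, were NR1H2, with a log2 fold change of 0.08 (SE 0.07, adjusted p = 0.416), and NR1H3, with one of 0.24 (SE 0.11, adjusted p = 0.0872). Neither was called, but NR1H3 was called without follicular replicate 2 (adjusted p 0.00800), under TPM (0.0240) and with the highest transcript only (0.0480). Their partners RXRA and RXRB were lower in the luteal phase, with log2 fold changes of -0.44 (SE 0.12) and -0.39 (SE 0.07). The call of RXRA was lost under TPM (adjusted p 0.0879) and the exact permutation test (0.0578), and that of RXRB with the highest transcript only (0.128). MYLIP, a ubiquitin ligase gene that is another known target of these receptors, fell by 1.00 on the log2 scale (SE 0.17, adjusted p = 0.000804). PLTP, MYLIP and the receptors were named after their values were seen, and the other genes of this list because their mean FPKM was among its 6 highest.

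**Figure D4:**
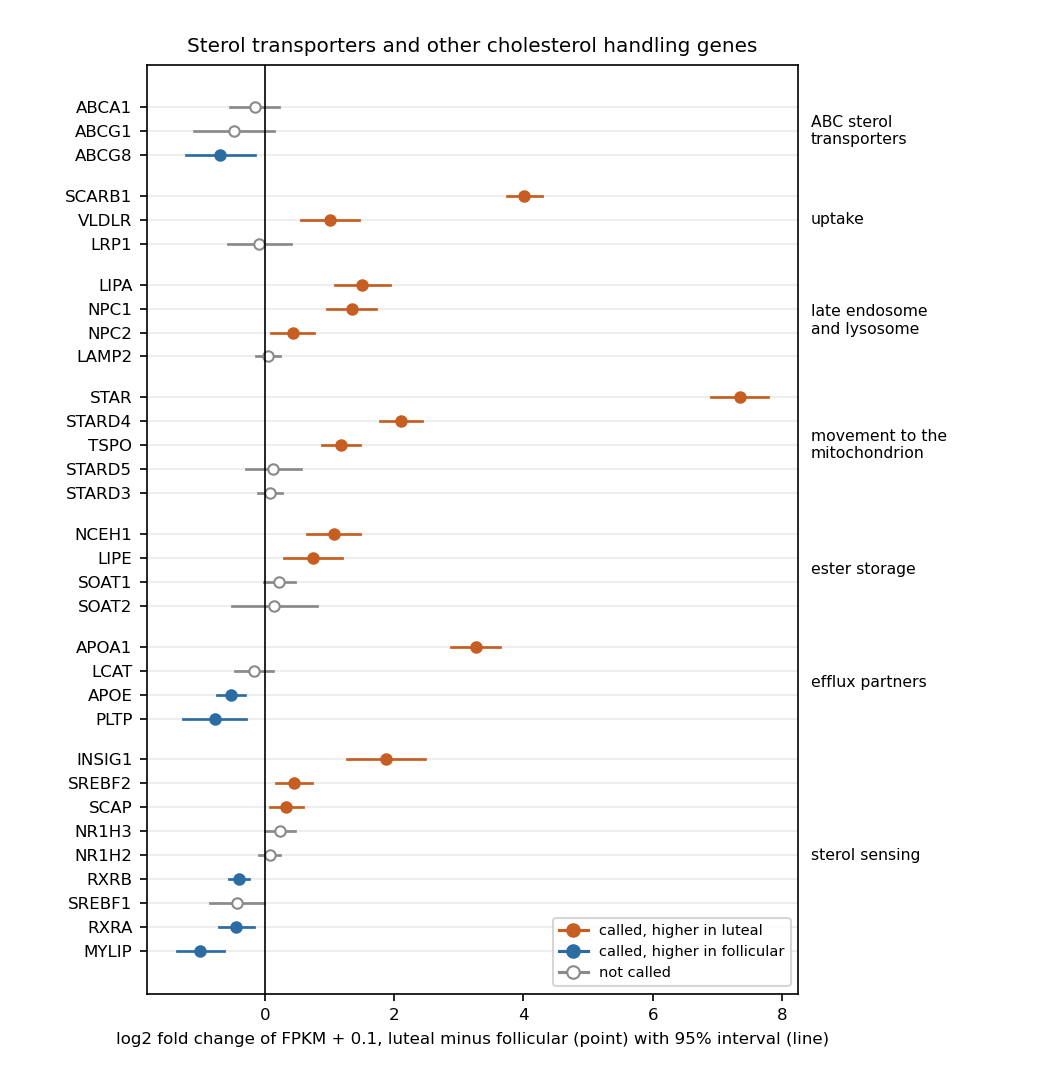
Log2 fold change of FPKM + 0.1, luteal minus follicular, with 95% intervals, for the tested sterol transporters and 29 tested cholesterol handling genes, grouped by step. The points of the 3 sterol transporters lie left of 0, but only ABCG8 was called, and ABCA1 at -0.16 is near the all-gene median of -0.14. STAR is at 7.35 and SCARB1 at 4.01.

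Levels of cell type markers also differed between the phases, and their counts stand beside 15.9% of all genes called higher in the luteal phase and 27.8% called lower. All 6 tested markers of steroidogenic luteal cells were higher in the luteal phase, and their summed level was 5905 to 8076 FPKM there and 131 to 183 FPKM in the follicular phase. Endothelial markers were higher for 7 of 8 genes (summed 240 to 314 against 124 to 154 FPKM), macrophage markers for 5 of 9 (272 to 367 against 105 to 189 FPKM) and stromal markers for 3 of 7 (3406 to 5688 against 2620 to 3727 FPKM). Granulosa markers were lower in the luteal phase for 6 of 8 genes (79.0 to 366 against 228 to 708 FPKM), oocyte markers for 4 of 7 (8.54 to 19.7 against 16.2 to 46.6 FPKM) and smooth muscle markers for 5 of 5 (538 to 967 against 1176 to 1486 FPKM). The 3 listed red blood cell genes in the table summed to at most 0.324 FPKM in any ovary, and the 1 of them tested was not called. None of the tested markers was listed at 0 in an ovary. The part of these shifts in the differences of ABC genes was not tested.

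Among the multidrug and bile transporters, ABCB4 and ABCB1 were higher in luteal phase ovaries and ABCG2 was higher in follicular ones. ABCB4 (gene 102171298), known for moving phosphatidylcholine into bile, had the largest log2 fold change of the called ABC genes, though not in every alternative. It was at 0.0955, 0.682, 0.379, 0.338 and 0.375 FPKM in luteal phase ovaries 1 to 5 and at 0.133, 0.0463, 0.0246, 0.0396 and 0.0314 FPKM in follicular phase ovaries 1 to 5. Luteal replicates 2 to 5 were above every follicular phase ovary, and luteal replicate 1 was below follicular replicate 1. ABCB4 had a log2 fold change of 1.52 (95% interval 0.78 to 2.27, adjusted p = 0.00422). Over all alternatives that tested ABCB4, this value ran from 0.37 to 2.54, while that of ABCD4 was never below 0.61. ABCB4 passed the filter through these 4 luteal phase ovaries and follicular replicate 1 alone, and it failed the filter in 5 of the 10 fits without 1 ovary. It lies next to its close relative ABCB1, whose mean FPKM it reached only at 0.795%. How reads shared by these similar genes were assigned is not given in the sources used here, so the value of ABCB4 is uncertain.

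ABCB1 (gene 102185649), the drug exporter P-glycoprotein, was the second highest ABC gene. Its luteal phase ovaries 1 to 5 were at 25, 31.5, 37.1, 31.8 and 33.7 FPKM and its follicular phase ovaries at 27.5, 15.0, 26.3, 21.2 and 20.5 FPKM. Luteal replicate 1 lay within the follicular range and the other 4 above it. For ABCB1 the log2 fold change was 0.54 (95% interval 0.19 to 0.89, adjusted p = 0.0175). By the exact permutation test the adjusted p was 0.0578. With the highest transcript only, the log2 fold change was larger, at 1.83, and its limma adjusted p was 0.255.

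ABCG2 (gene 100860857), the breast cancer resistance protein, exports drugs and urate and carries compounds into milk. It was at 13.0, 13.3, 17.2, 11.5 and 10.6 FPKM in luteal phase ovaries 1 to 5 and at 31.2, 11, 26.6, 21.3 and 23.7 FPKM in follicular phase ovaries 1 to 5. Follicular replicate 2 was among the low luteal values, and the other 4 follicular phase ovaries were above all luteal ones. Its log2 fold change was -0.73 (95% interval -1.26 to -0.20, adjusted p = 0.0300), a mean 1.74 times as high in the follicular phase. The call was lost without luteal replicate 4 or 5 or follicular replicate 1, 3, 4 or 5 (adjusted p 0.0518 to 0.0719). The bile salt exporter ABCB11 stayed between 0.0102 and 0.0384 FPKM in all 10 ovaries, and ABCB5 was listed above 0 only in follicular replicates 2 and 3, at 0.00338 and 0.00436 FPKM.

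In subfamily A, the other lipid transporters, 2 of the 7 tested genes were called, both higher in the luteal phase, beside 43.7% of all genes called and 15.9% called higher in the luteal phase. ABCA7 (gene 102175208), a phospholipid transporter linked to phagocytosis, was at 1.06, 0.654, 0.540, 0.650 and 0.753 FPKM in luteal phase ovaries 1 to 5 and at 0.342, 0.355, 0.236, 0.284 and 0.293 FPKM in follicular phase ovaries 1 to 5. Its ranges did not overlap, and the log2 fold change was 1.03 (95% interval 0.61 to 1.44, adjusted p = 0.00146). ABCA3 (gene 102173435), which loads surfactant lipids into lamellar bodies in the lung, was at 1.09, 0.841, 0.859, 0.912 and 1.33 FPKM and at 0.756, 0.574, 0.412, 0.560 and 0.502 FPKM in the same order. Its ranges were also separate, by the small step from 0.756 to 0.841 FPKM, and the log2 fold change was 0.74 (95% interval 0.34 to 1.15, adjusted p = 0.00759). Both calls were lost when only the highest transcript of each gene was used, with adjusted p of 0.141 for ABCA7 and 0.749 for ABCA3. The log2 fold change was then 1.19 for ABCA7, no smaller than before, and 0.35 for ABCA3.

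The other tested members of subfamily A were not called. ABCA5, ABCA6 and ABCA10 lie side by side in the goat RefSeq annotation, and all 3 had negative log2 fold changes with intervals just below 0: -0.30 (-0.57 to -0.04) for ABCA5, a lysosomal protein, -0.48 (-0.91 to -0.04) for ABCA6 and -0.54 (-1.02 to -0.06) for ABCA10. Their adjusted p were 0.0637, 0.0733 and 0.0649. Without luteal replicate 3, ABCA5 and ABCA6 were called (adjusted p 0.0197 and 0.0343), and ABCA10 was called without follicular replicate 5 (adjusted p 0.0340). ABCA4, the retinoid lipid transporter of photoreceptors, had a log2 fold change of 0.43 (-0.01 to 0.87), and it was called without luteal replicate 1 (adjusted p 0.0422), with quantile normalization (0.0318) and with eBayes without trend (0.0392). ABCA2, a lysosomal lipid transporter best known from the brain, had one of 0.04 (-0.47 to 0.55), whose sign turned in 4 of the fits without 1 ovary. ABCA13 (0.00194 to 0.0771 FPKM over all ovaries) and the skin lipid transporter ABCA12 (0 to 0.00762 FPKM) were below the filter.

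Of the 9 conjugate and nucleotide transporters of subfamily C, 6 were tested and 3 called (43.7% of all genes). In luteal phase ovaries 2 were higher (15.9% of all genes) and in follicular ones 1 was higher (27.8% of all genes). ABCC4 (gene 102170612), which exports cyclic nucleotides and prostaglandins, was at 5.48, 5.03, 5.12, 4.95 and 5.89 FPKM in luteal phase ovaries 1 to 5 and at 3.89, 3.77, 3.69, 3.85 and 3.84 FPKM in follicular phase ovaries 1 to 5. The 5 follicular phase ovaries lay between 3.69 and 3.89 FPKM, all below the luteal ones. This gave a log2 fold change of 0.46 (95% interval 0.27 to 0.65, adjusted p = 0.00150). SLCO2A1, the transporter that takes prostaglandins up, was higher in the luteal phase (log2 fold change 2.52, SE 0.17), and it was looked up after the value of ABCC4 was seen. Also looked up were PTGES, which makes prostaglandin E, and HPGD, which breaks prostaglandins down. Both were uncalled, with log2 fold changes of -0.72 (SE 0.28, adjusted p = 0.0596) and -0.65 (SE 0.28, adjusted p = 0.0821). Of the 10 partner genes looked up in this way for several transporters, 9 were tested and 4 called, SLCO2A1, KCNJ8, LMBRD1 and PEX3, all higher in the luteal phase, beside 43.7% of all genes called and 15.9% called higher in the luteal phase.

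ABCC3 (gene 102181156), which exports bile acid and glucuronide conjugates, was at 2.96, 2.66, 4.16, 4.30 and 4.61 FPKM in luteal phase ovaries 1 to 5 and at 2.51, 1.82, 1.92, 1.69 and 2.83 FPKM in follicular phase ovaries 1 to 5. Luteal replicate 2 was below follicular replicate 5, and the other 4 luteal phase ovaries were above every follicular one. For ABCC3 the log2 fold change was 0.76 (95% interval 0.34 to 1.19, adjusted p = 0.00859), and it was 0.66 with an adjusted p of 0.690 with the highest transcript only. ABCC5 (gene 102186159), another exporter of cyclic nucleotides, was at 9.89, 7.78, 8.33, 7.37 and 9.64 FPKM and at 12.1, 8.86, 14.3, 11.5 and 11.1 FPKM in the same order. Follicular replicate 2 lay within the luteal range and the other 4 above it. The log2 fold change was -0.42 (95% interval -0.70 to -0.13, adjusted p = 0.0229), and the call was lost without luteal replicate 2 or 4 or follicular replicate 1 or 3 (adjusted p 0.0507 to 0.0590).

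The rest of this group was not called. ABCC1, an exporter of glutathione conjugates and leukotrienes, had a log2 fold change of 0.21 (95% interval -0.06 to 0.49), ABCC10 one of -0.28 (-0.71 to 0.15) and ABCC2, the conjugate exporter of the bile canaliculus, one of -0.67 (-1.38 to 0.04). ABCC2 was low, between 0.0433 and 0.241 FPKM in luteal and between 0.153 and 0.553 FPKM in follicular phase ovaries. ABCC6, ABCC11 and ABCC12 stayed below the filter. ABCC11, known for its part in earwax type, and its neighbour ABCC12 reached at most 0.0173 and 0.0332 FPKM, both in follicular replicate 5.

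Of the sulfonylurea receptors, which are regulatory subunits of potassium channels that close when ATP rises, ABCC9 was expressed and ABCC8 was below the filter. ABCC9 (gene 102187656) is the form of heart and vascular smooth muscle. It was at 9.28, 11.5, 12.4, 11.1 and 12.6 FPKM in luteal phase ovaries 1 to 5 and at 6.91, 5.71, 9.57, 8.03 and 5.07 FPKM in follicular phase ovaries 1 to 5. Follicular replicate 3 was above luteal replicate 1, and the other 4 luteal phase ovaries were above all follicular ones. ABCC9 had a log2 fold change of 0.71 (95% interval 0.35 to 1.06, adjusted p = 0.00501), and it stayed a call in all alternatives run. KCNJ8, a pore subunit of these channels that was looked up after ABCC9 was seen, had a log2 fold change of 0.80 (SE 0.14, adjusted p = 0.00121), and KCNJ11, the other pore subunit looked up, was below the filter. The 5 smooth muscle markers were lower in the luteal phase, as given above, while most endothelial and some stromal markers were higher. The part of these shifts in the difference of ABCC9 was not tested. ABCC8, the form of insulin-secreting cells, was between 0.00505 and 0.0638 FPKM in the 10 ovaries.

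None of the 5 mitochondrial and lysosomal transporters of subfamily B was called by limma (43.7% of all genes were), with 2 at an unadjusted p under 0.05, ABCB8 and ABCB10, and 0 called by the exact permutation test. ABCB6, which transports porphyrins, had a log2 fold change of 0.24 (95% interval -0.02 to 0.51). ABCB10, needed for haem synthesis, had one of -0.26 (-0.51 to -0.02, adjusted p = 0.0794). ABCB8, a mitochondrial transporter, had one of 0.44 (0.04 to 0.84, adjusted p = 0.0732). Without follicular replicate 2, ABCB6 and ABCB8 were called (adjusted p 0.0241 and 0.0285), and ABCB10 was called without luteal replicate 4 (adjusted p 0.0426). ABCB8 was also called with the ovaries set to a common median (adjusted p 0.0362), with quantile normalization (0.0374) and with TPM (0.0490), and ABCB6 was called with TPM (0.0491). ABCB9, a lysosomal peptide transporter, had one of 0.08 (-0.42 to 0.59), which was -0.13 without luteal replicate 1.

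Subfamily D serves peroxisomes, except for ABCD4 (gene 102189489), which releases vitamin B12 from lysosomes. ABCD4 was at 7.18, 9.52, 7.18, 8.95 and 9.58 FPKM in luteal phase ovaries 1 to 5 and at 4.62, 4.00, 5.49, 4.48 and 4.82 FPKM in follicular phase ovaries 1 to 5. Its ranges did not overlap, with a step from 5.49 to 7.18 FPKM between them. ABCD4 had a log2 fold change of 0.84 (95% interval 0.58 to 1.10, adjusted p = 0.000307), the lowest adjusted p of the ABC genes. LMBRD1, its partner in the lysosomal membrane, was looked up afterwards and had a log2 fold change of 0.48 (SE 0.07, adjusted p = 0.000501). MMACHC and MMADHC, which handle the vitamin after its release, were looked up with it and were not called, with log2 fold changes of -0.18 (adjusted p = 0.357) and 0.09 (adjusted p = 0.199). The peroxisomal fatty acid transporters were not called, with log2 fold changes of 0.07 (-0.10 to 0.24) for ABCD3 and -0.40 (-0.93 to 0.14) for ABCD2.

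The soluble proteins ABCE1, which recycles ribosomes, and ABCF2 and ABCF3, which are linked to translation, were not called, and 0 of them had an unadjusted limma p under 0.05 or a call by the exact permutation test, beside 43.7% of all genes called by limma and 36.1% by the exact permutation test. ABCF3 had a log2 fold change of 0.00 with a 95% interval from -0.17 to 0.18. ABCE1 had one of -0.08 (-0.39 to 0.23) and ABCF2 one of -0.05 (-0.32 to 0.23), and both signs turned when the ovaries were shifted to a common median or FPKM were rescaled to TPM.

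The transcripts of the ABC genes were also tested one by one, over all 32842 transcripts that passed the same filter. Of the 109 transcripts, 62 were tested and 5 called (8.06%, against 17.3% of all transcripts), all of them higher in the luteal phase (7.47% of all transcripts) and each of another gene. In the follicular direction limma called 0 (9.82% of all transcripts), with 2 at an unadjusted p under 0.05, and the exact permutation test called 0. When 1 ovary was left out, 1 was called in this direction without luteal replicate 2 and 2 without follicular replicate 2. The ranges of the phases were apart for 2 transcripts (3.23%, against 15.3% of all transcripts), XM_018046732.1 and XM_018056447.1, both with the luteal phase above (6.63% of all transcripts; 8.62% had the follicular phase above). The 5 called transcripts were XM_018047295.1 of ABCB4, XM_018046732.1 of ABCB8, XM_018056447.1 of ABCC4, XM_005680782.3 of ABCC9 and XM_005686074.3 of ABCD4. With an exact permutation test in place of limma, 0 ABC transcripts were called, with 10 at an unadjusted p under 0.05, and 0 of all transcripts were called in that fit. The genes with a single transcript numbered 16, and the other 26 had up to 8, the number for ABCG2. The share of a gene held by each transcript varied between ovaries of a phase, and the part of fragment assignment between similar transcripts in this was not tested.

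ABCB8 had a called transcript while its sum was not called. Its minor transcript XM_018046732.1 was at 0.602, 0.877, 0.779, 0.542 and 0.948 FPKM in luteal phase ovaries 1 to 5 and at 0, 0.343, 0, 0.17 and 0 FPKM in follicular phase ovaries 1 to 5. The ranges did not overlap, and 3 follicular phase ovaries were listed at 0. This transcript reached the filter's level in all 5 luteal phase ovaries and would have passed through them alone, so its call is given as a description. It held on average 19.0% of the FPKM of the gene in luteal (12.2 to 23.1%) and 3.23% in follicular phase ovaries (0 to 8.75%), while the main transcript XM_018046731.1 had a log2 fold change of 0.19 (adjusted p = 0.578).

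In ABCD4, XM_005686074.3 rose with a log2 fold change of 0.61 (SE 0.16, adjusted p = 0.0240), and the second transcript, XM_018053976.1, was listed at 0 in luteal replicate 3 and in follicular replicates 3 and 4. In ABCB1, the main transcript XM_018047300.1 was at 9.67 to 19.1 FPKM in 4 follicular phase ovaries but at 0.0406 FPKM in follicular replicate 4, where the other transcript, XM_018047299.1, was at 21.1 FPKM. In ABCG8, XR_001296257.2 was listed at 0 in luteal replicate 5, and XM_013967599.2 held all of the FPKM there. No transcript of ABCG8 or ABCB1 was called (adjusted p 0.284 and 0.5 for ABCG8, 0.326 and 0.580 for ABCB1).

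**Figure D5:**
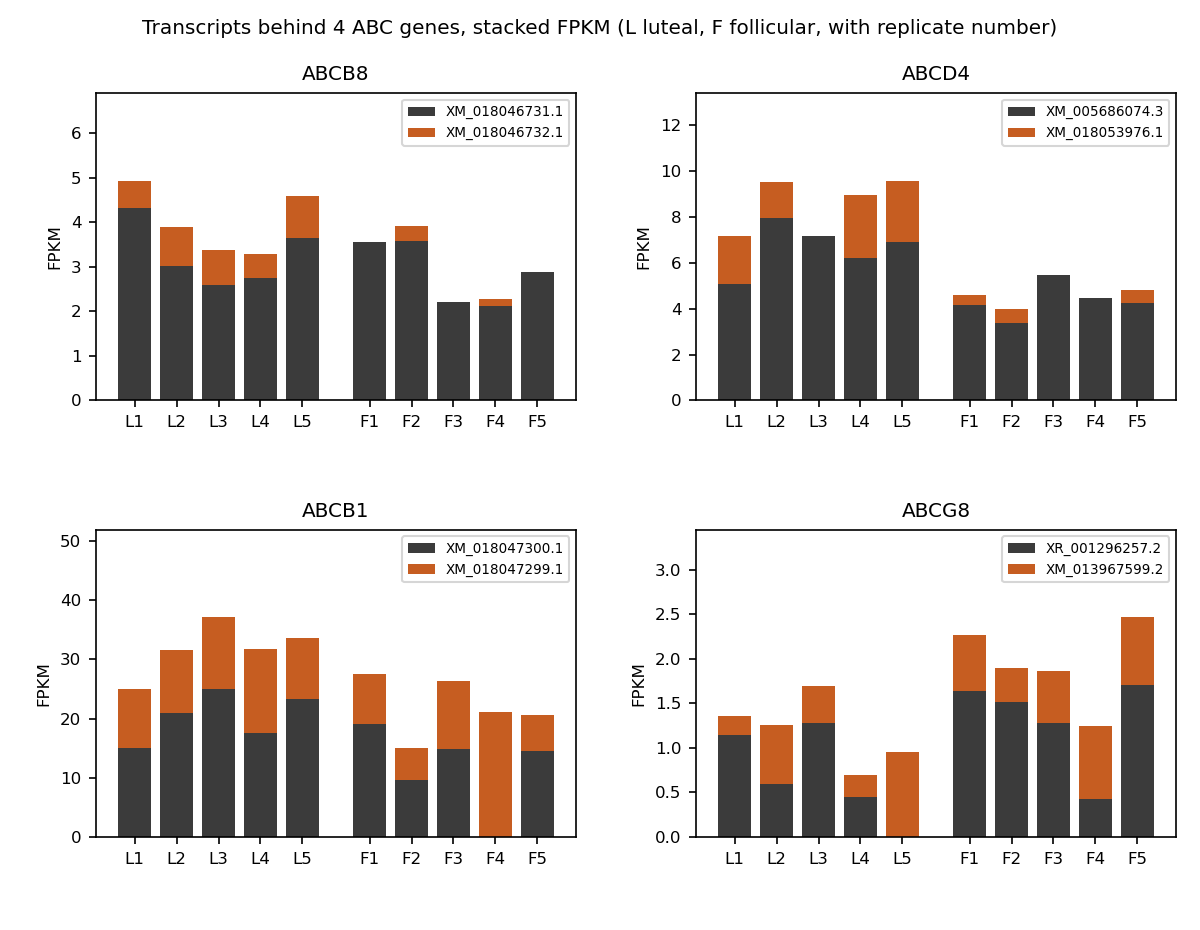
Stacked FPKM of the transcripts of ABCB8, ABCD4, ABCB1 and ABCG8 in each ovary (L luteal, F follicular, with the replicate number), each panel on a linear axis from 0. The orange part of ABCB8 is present in all 5 luteal phase ovaries and in follicular replicates 2 and 4 only, and in ABCB1 the dark part nearly vanishes in follicular replicate 4.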

How the data were processed

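Ovaries of Anhui white goats were frozen whole, and ribosomal RNA-depleted, strand-specific libraries were sequenced as paired ends. The authors used HISAT2 for alignment, StringTie for assembly and Cuffdiff for the deposited FPKM of each transcript in each ovary, and no ovaries were pooled. The genome build is not given in the sources used here. Tables that repeat rows of the transcript table were not used. Columns were matched to ovaries by phase and number.

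FPKM of protein-coding transcripts were summed by gene symbol and analysed as log2(FPKM + 0.1), luteal minus follicular, with limma 3.58.1 in R 4.3.3 (lmFit, then eBayes with trend, two-sided, all 10 ovaries, no covariate), keeping features with at least 0.1 FPKM in at least 5 ovaries. The Benjamini-Hochberg adjustment covered every feature tested, and an adjusted p under 0.05 is a call. The fits were also run on these data with the phase difference of every feature removed and known changes added. This checked the code only, because unchanged features had no difference by construction, so it could not measure the rate of false calls. Where exact permutation is named, all splits of the 10 ovaries were used for each feature, and the smallest two-sided p is 0.00794. Neighbouring genes and names come from the RefSeq gene table of assembly ARS1.2, and no coordinates or sequences are given. The members, roles, lists and tests were chosen with earlier results of these data known, and the lists of partner genes after the ABC values were seen. Some genes are not reported here, although the counts and sums include them. The members are otherwise all named, with values per ovary for the sterol transporters and the called genes. The alternatives tried were TPM, quantile normalization, a shift to a common median, pseudocounts of 1 and 0.01, a minimum of 0.5 FPKM or no filter, eBayes without trend, exact permutation, a replicate block, the highest transcript only, messenger RNA accessions only, and leaving out each ovary. Depth per ovary is unknown, so the spread between ovaries is the only measure of precision.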

Additional observations from a re-analysis of the deposited data

Results flagged for a closer look

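In these genes, 1 ovary stood apart from the other 4 of its phase, with a gap to the nearest of them, as a share of the range of the phase, above Dixon's 95% critical value of 0.71. Chance gives this in about 1 in 20 groups, which is 4.7 of the 94 groups of 5 looked at, and 8 were found. Among the ABC genes, ABCB9 was at 2.28 FPKM in luteal replicate 1, with the other luteal phase ovaries between 0.835 and 1.16 FPKM. ABCB4 was at 0.133 FPKM in follicular replicate 1, with the others between 0.0246 and 0.0463 FPKM, and ABCE1 was at 44.9 FPKM in follicular replicate 2, with the others between 25.7 and 31.0 FPKM. Among the other named genes, CFTR was at 3.45 FPKM in luteal replicate 3 (others 0.449 to 0.661 FPKM), and TAP2 was at 13.4 FPKM in luteal replicate 1 (others 17.4 to 18.8 FPKM) and at 22.4 FPKM in follicular replicate 2 (others 13.5 to 15.3 FPKM). APOA1 was at 653 FPKM in follicular replicate 4 (others 380 to 458 FPKM), and PLTP at 22.1 FPKM in luteal replicate 2 (others 13.9 to 15.9 FPKM).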

How the results depend on the processing

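The 11 ABC calls became 7 with the exact permutation test, 4 with the highest transcript only, and 7 to 12 without 1 ovary each (7 without follicular replicate 1), and were 10 to 13 otherwise. Over all genes the share called went from 43.7% to 36.1% and 32.3% under the first 2 of these. The 5 ABC transcript calls became 0 with the exact permutation test, where the smallest adjusted p of any transcript was 0.0520, 3 with the replicate block, and 3 to 7 without 1 ovary each (3 without luteal replicate 5 or follicular replicate 1). The 21 cholesterol handling calls were 17 to 22 throughout. ABCC4, ABCC9 and ABCD4 were called in all fits. ABCB4 was called in all fits that tested it, but only 5 of the 10 fits without 1 ovary did. Each of these left out an ovary where ABCB4 was under 0.1 FPKM, so they say little about its stability. ABCC5, ABCG2 and ABCG8 lost their calls under TPM (adjusted p 0.125, 0.0738 and 0.0911), the exact permutation test (0.0578, 0.0842 and 0.0713) and the highest transcript only (0.1, 0.115 and 0.212), and ABCG8 also with no filter (0.0569) and a common median (0.0532). With the highest transcript only, their log2 fold changes were -0.40, -1.18 and -1.16, against -0.42, -0.73 and -0.68 with all transcripts summed. Whether equal replicate numbers mark a pair or a batch is not given in the sources used here. The deviations of same-numbered ovaries correlated at 0.0258 to 0.199, 2 of 5 pairs were over 0.1, and 5 of 10 ovaries correlated best with their own number. Over all genes, 45.7% were called with the replicate block and 43.7% without it. With the replicate block, 13 ABC genes were called, 9 toward luteal and 4 toward follicular, with ABCB8 (adjusted p 0.0255) and ABCA6 (0.0404) added. Signs turned for uncalled genes near 0: ABCE1 became 0.0069 with a common median and 0.021 with TPM, ABCF2 became 0.039, 0.00325 (quantile normalization) and 0.052, TAP1 became 0.063, 0.030 and 0.077, and ABCB9 was -0.51 with the highest transcript only. Without 1 ovary each, the range was -0.066 to 0.20 for ABCA2, -0.13 to 0.20 for ABCB9, -0.15 to 0.055 for ABCE1, -0.11 to 0.047 for ABCF2, -0.027 to 0.054 for ABCF3 and -0.077 to 0.049 for TAP1. The causes were not tested. Depth per ovary is unknown, so counting error cannot be given.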

Other observations

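CFTR, TAP1 and TAP2 are ABC proteins whose symbols do not follow the naming of the family. CFTR, a chloride channel of secretory epithelia, was at 0.449, 0.629, 3.45, 0.568 and 0.661 FPKM in luteal phase ovaries 1 to 5 and at 0.217, 0.287, 0.209, 0.192 and 0.378 FPKM in follicular phase ovaries 1 to 5. Every luteal phase ovary was above every follicular one, and luteal replicate 3 was far above the rest. The log2 fold change was 1.42 (SE 0.44, adjusted p = 0.0232 by limma), and with a pseudocount of 1 it was 0.63 (adjusted p = 0.0717). Without 1 ovary each, it was 0.94 to 1.61. TAP1 and TAP2, which carry peptides to the antigen-presenting machinery, were not called, with log2 fold changes of -0.02 (SE 0.11) and 0.13 (SE 0.14).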
